A study of Mus musculus with 12 samples.

Results

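The 133 probes described here were detected in every mammary gland and in no mammary tumor of the series. They were chosen from the measured values: a probe belonged to the set if its detection p was under 0.01 on all 6 gland arrays and 0.01 or more on all 6 tumor arrays, which held for 133 of 45281 probes (0.294%). The detection p states how often a negative-control probe was at least as bright as the probe in question, so it measures whether a signal stood above background and not how much RNA was present. The higher level in glands was therefore fixed by the choice and is given without a test. Of the 133 probes, 113 carried the name of a single gene, for 110 genes in all, and 20 carried no gene name.

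The mice were female, of the FVB strain and 10 weeks old, and RNA of 12 samples in 4 groups of 3 was measured on Illumina mouse BeadChips. Hyperglycemic tumors came from PyMT/PANIC mice, which carry both the polyoma middle T antigen that drives mammary tumors and PANIC-ATTAC, an inducible transgene for the ablation of insulin-producing beta cells. Control tumors came from PyMT mice without PANIC-ATTAC. Hyperglycemic glands came from PANIC-ATTAC mice without PyMT, and control glands from wild-type (WT) mice. The promoter of PyMT, the agent that induced ablation and whether the 3 samples of a group were separate animals are not given in the labels, so p-values measure no more than sample-to-sample spread, which may be technical. Each tissue had a BeadChip of its own, and the effects of BeadChip and tissue cannot be told apart. On both BeadChips the controls took the first 3 places and the hyperglycemic samples the last 3, and place on the chip and condition cannot be told apart either.

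A mammary gland is mostly a fat pad with a branched epithelium running through it, together with fibroblasts, vessels, nerves, resident leukocytes and often a lymph node. PyMT tumors are dominated by proliferating luminal epithelial cells, so fat, stroma and lymphoid cells take up a smaller part of the tissue. In an RNA sample of a whole tissue, fewer cells of a type and less RNA per cell cannot be told apart. Insulin is a main regulator of fat tissue, where it restrains the release of glycerol and fatty acids and favours lipid storage.

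The promoters of the 4 genes with the largest differences between hyperglycemic and control glands, among probes higher on all 3 hyperglycemic than on all 3 control glands, are shown for the sequence from which these genes are transcribed. Each is the 250 bases before the start of the gene, read 5′ to 3′ on the gene's strand from RefSeq on GRCm38.p6. Capitals mark matches, on either strand, to the E-box CACGTG, the motif CCAAT, the GC box GGGCGG and the TATA-type motif TATAAA. Elovl4 lies on the minus strand at chr9:83806306-83806555, Meis2 on the minus strand at chr2:116064620-116064869, Slc43a1 on the plus strand at chr2:84840073-84840322 and Acsm5 on the plus strand at chr7:119526015-119526264.
Elovl4: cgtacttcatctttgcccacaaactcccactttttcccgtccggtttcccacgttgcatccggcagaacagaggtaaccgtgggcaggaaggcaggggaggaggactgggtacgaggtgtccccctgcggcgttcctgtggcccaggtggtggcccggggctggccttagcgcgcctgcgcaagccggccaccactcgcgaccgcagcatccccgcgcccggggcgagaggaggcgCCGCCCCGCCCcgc
Meis2: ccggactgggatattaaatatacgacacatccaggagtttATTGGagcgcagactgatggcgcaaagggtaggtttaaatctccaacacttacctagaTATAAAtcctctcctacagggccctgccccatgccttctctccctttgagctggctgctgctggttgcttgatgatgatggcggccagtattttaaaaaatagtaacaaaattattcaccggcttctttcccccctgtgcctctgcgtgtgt
Slc43a1: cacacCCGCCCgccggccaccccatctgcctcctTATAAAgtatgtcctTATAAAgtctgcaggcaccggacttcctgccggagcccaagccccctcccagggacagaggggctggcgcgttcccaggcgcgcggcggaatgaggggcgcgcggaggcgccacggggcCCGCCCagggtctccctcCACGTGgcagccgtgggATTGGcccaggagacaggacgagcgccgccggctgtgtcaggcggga
Acsm5: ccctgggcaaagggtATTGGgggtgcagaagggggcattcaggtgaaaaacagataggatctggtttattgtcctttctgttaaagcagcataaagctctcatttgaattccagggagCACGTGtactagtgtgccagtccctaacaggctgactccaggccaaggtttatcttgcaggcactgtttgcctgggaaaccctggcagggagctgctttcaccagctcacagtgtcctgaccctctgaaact
No motif was shared by all 4. Elovl4 held 2 GC boxes that share bases and a GC content of 69.6%, Slc43a1 held 6 matches at 70.8% GC, and Meis2 and Acsm5 held 2 matches each at 47.6% and 51.2% GC. Among 32851 mouse promoters of the same length, CACGTG was present in 6.0%, CCAAT in 33.8%, GGGCGG in 32.7% and TATAAA in 12.4%. A match describes letters and is no evidence that a factor binds there.

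A gland stood apart from the rest, on these probes (given below) and on measures outside the set. WT control-1 had 37.1 beads per probe on average, against 44.4 to 44.7 on the 5 other glands. Some luminal epithelial markers, though not all, read near their tumor level on WT control-1. None of the luminal markers is in the set. Krt8, a luminal keratin, averaged 12.61 log2 units in tumors and read 12.49 on WT control-1. That reading was 1.37 above the mean of the 5 other glands. The milk protein gene Wap averaged 12.45 in tumors and read 12.43 on WT control-1, which was 3.99 above the mean of the 5 other glands. Wap read 9.86, 4.56 and 8.61 in PANIC-ATTAC glands and 9.68 and 9.48 in the other WT glands, so PANIC-ATTAC gland 2 lowered that mean. Of 19 luminal probes, 15 read higher on WT control-1 than the mean of the other glands. Among these, Csn1s1 and Csn2 read 12.5 and 13.3, above their tumor averages of 11.68 and 12.35. PANIC-ATTAC gland 1, at 12.22 and 13.28, and WT control-3, at 11.78 and 12.59, lay above these tumor averages too. The other 4 luminal probes read lower than the mean of the other glands: Foxa1 differed by -1.75, Esr1 by -0.66, Aldh1a3 by -0.46 and Krt19 by -0.17. Results that rest on WT control-1 are given with and without it.

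The set was dim. Background-corrected and quantile-normalised levels, in log2 units of intensity, averaged between 5.47 and 7.34 over the 6 glands with a median of 6.2, while the median of all 18427 tested probes was 7.53. All 133 lay below that median. On the scale of the deposited average signal, tumor means ran between 45.4 and 66.6 with a median of 58.8, and gland means between 76.9 and 205 with a median of 108. The lowest signal that counted as detected was between 66.4 and 76.5, depending on the array.

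In each tumor the median deposited signal of the set was close to background, at 59.2, 61.1 and 57.1 in PyMT/PANIC tumors and 58.1, 56.3 and 61.4 in PyMT tumors. In glands it was 113, 119 and 106 in PANIC-ATTAC glands, against 79.8, 108 and 115 in WT glands, where 79.8 is WT control-1. Because tumors give only a bound, tumors were at least 1.11-fold to 4.08-fold lower than glands, with a median bound of 1.84-fold, and for 48 probes the bound was 2-fold or more. In log2 units the medians were 4.79, 4.88 and 4.71 in PyMT/PANIC tumors and 4.73, 4.79 and 4.98 in PyMT tumors. They were 6.25, 6.41 and 6.27 in PANIC-ATTAC glands, against 5.57, 6.28 and 6.4 in WT glands, so every gland lay above every tumor, WT control-1 by the least. The bounds set the mean of the 6 gland levels against the mean of the lowest detected level of each tumor array, or the probe's own value where that was higher.

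Not detected in tumors did not mean far below the threshold. Only 20 of the 133 probes had a detection p of 0.05 or more in every tumor, and 59 had a tumor with a detection p under 0.02. PyMT tumor 3 was the closest to detection, with 90 of the probes at a detection p under 0.05, while the other tumors had 25 to 52. Just outside the rule lay 135 probes that all glands and exactly 1 tumor detected, with a median level of 5.03 in tumors and 6.34 in glands. Another 274 probes were detected on exactly 5 glands and no tumor, with a median gland level of 5.66, and WT control-1 was the gland that missed 233 of them. The reverse pattern, detection on all 6 tumors and no gland, held for 57 probes.

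WT control-1 alone decided much of the membership. With the rule applied to the 5 other glands, the set grew to 366 probes, of which WT control-1 detected 36.3%. With another gland left out in its place, the set held 133 to 163 probes, and the gland left out detected 81.6% to 100% of them.

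Other probes of the same genes showed that many of these genes were measured in tumors. Of the 110 genes, 80 had at least 1 further probe on the array, 148 probes together. These are the probes of the same genes that did not meet the rule, and their genes were chosen through the rule. Counts of their detection in tumors and their differences between tissues are therefore not free of that choice. In all, 30 genes had a further probe that every tumor detected and 38 a further probe that at least 1 tumor detected, while for 42 genes no tumor detected any further probe. A total of 70 further probes were detected on no array. The 38 further probes detected on all 6 tumors had tumor means between 5.58 and 9.77 log2 units, and 36 of them read higher in glands, with a median gland-minus-tumor difference of 1.55.

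Pparg, the nuclear receptor that directs fat cell differentiation, had 2 probes in the set with gland means of 6.74 ± 0.40 and 5.73 ± 0.23 log2 units (SD, n = 6). Its further probe ILMN_1221060 averaged 8.55 ± 0.70 in tumors and 11.47 ± 0.36 in glands (SD, n = 6 each). Detection of Pparg in tumors thus depended on the probe read. The same held for Ccdc80, a secreted matrix protein made by fat tissue, whose further probe averaged 9.25 ± 0.42 in tumors and 11.36 ± 0.50 in glands. Fgf10, a growth factor of the mammary mesenchyme, had a further probe (ILMN_2736497) at 6.63 ± 0.60 in tumors and 9.74 ± 0.59 in glands. Mef2b, a transcription factor of germinal-centre B cells, was an exception in direction: its further probe ILMN_1236577 averaged 9.44 ± 0.10 in tumors and 9.07 ± 0.15 in glands.

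The brightest members of the set were led by Esrrb, an orphan nuclear receptor related to the estrogen receptors, which averaged 7.34 ± 0.67 log2 units over the 6 glands (SD). Esrrb read 7.23, 7.49 and 8.44 in PANIC-ATTAC glands, against 7.46, 6.40 and 7.06 in WT glands, and the groups overlapped. Its tumor signals on the deposited scale were between 52.2 and 63.7, against 114 to 346 in glands. Next were Gipc2, a PDZ-domain protein, at 7.26 ± 0.72, and 2 solute carriers: Slc6a13, a GABA transporter, at 7.08 ± 0.86, and Slc13a4, a sodium-sulfate cotransporter, at 7.06 ± 0.72. Skap1, an adaptor of T cell receptor signalling, averaged 6.92 ± 0.49 and Npy1r, a receptor of neuropeptide Y, 6.91 ± 0.44. The remaining places among the 10 brightest were held by Slc28a2, Slc43a1 and the unnamed probes ILMN_2454209 and ILMN_1254974, at 6.87 to 7.01.

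Members varied more between glands than the average probe did. The SD over the 6 glands had a median of 0.39, between 0.09 and 1.16, against 0.23 over all tested probes. Without WT control-1 the medians were 0.25 for the set and 0.17 for all tested probes. Dim probes carry more measurement noise for their signal, but the offset added in processing compresses their differences in log2 units. The part of either in this difference was not tested.

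On WT control-1 the set was lower than on the other glands. The median probe differed from the mean of the 5 other glands by -0.68 log2 units, which is 1.6-fold lower, and the quartiles of the difference were -0.94 and -0.39. In all, 127 of the 133 probes (95.5%) lay below that mean, against 47.7% of all tested probes. WT control-1 was the lowest gland for 101 (75.9%), against 30.3% of all tested probes, and the highest for 0. For 24 probes (18.0%) it was at least 2-fold below, against 5.36% of all tested probes. On the scale of deposited signal, with 0 at the tumor mean and 1 at the mean of the other glands, the median probe of WT control-1 lay at 0.429, while each other gland lay between 0.963 and 1.26. For the 133 probes the median differences of the 5 other glands, each against the mean of the rest, were between 0.08 and 0.23 log2 units. WT control-1 was part of that mean for each of them, which raised these differences and the positions between 0.963 and 1.26.

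The rule used detection on WT control-1, and applied to the 5 other glands it left the level on WT control-1 free while asking for detection on the rest, a choice that by itself favours a lower value there. Over those 366 probes the median difference of WT control-1 was -0.8. The same choice made for each other gland in turn gave that gland a median difference between -0.05 and 0.22, from a mean that includes WT control-1. The 57 probes detected on all tumors and no gland lay 0.39 higher on WT control-1 than on the other glands at the median. Each other gland lay between -0.17 and -0.03, again from a mean that includes WT control-1. WT control-1 is a single array, so these differences have no replicate and no test.

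Il1r2, the decoy receptor of interleukin-1, had the largest difference of this kind, at 5.42 log2 units on WT control-1 against 7.12 ± 0.51 on the 5 other glands (SD), a difference of -1.71. Slc13a4 read 5.64 on WT control-1 and 7.34 ± 0.20 on the others, a difference of -1.70. Pcdh19, a cell-adhesion protocadherin, read 5.39 on WT control-1 and 6.96 ± 0.18 on the others, a difference of -1.57. Il1r2 was also the most spread of these 3 genes over the other glands. Slc43a1, a transporter of branched-chain and other neutral amino acids, the unnamed probe ILMN_1244726 and Gipc2 followed at -1.52, -1.45 and -1.39. At the other end the 4 named probes read slightly higher on WT control-1 than on the other glands: Ccdc80 by 0.27, Esrrb and the immunoglobulin-superfamily gene Igsf21 by 0.13 each, and Aqp7 by 0.12. The other 2 probes above that mean, a Pparg probe (ILMN_1221893) and ILMN_2705384, were less than 0.1 above it. For Ccdc80 and Aqp7 the brighter probes of the same genes ran the other way, at -1.05 for Ccdc80 and between -0.84 and -0.77 for the 3 further probes of Aqp7.

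Genes were grouped by known role after their values had been seen, so the groups describe the set and test nothing. Solute carriers were the group with the largest shift on WT control-1, at a median of -1.22 over 8 probes, all 8 of them lowest on that gland. Slc28a2, a nucleoside transporter, read 6.04 on WT control-1 and 7.09 ± 0.13 on the others, and Slc28a2b 5.51 and 6.81 ± 0.12. These are near-identical gene copies, so their probes may not tell them apart. Slc10a6, a carrier of sulfated steroids, and Slc16a5, of the monocarboxylate transporter family, read 5.34 and 5.86 there, differences of -1.14 and -0.62 from the other glands. Slc6a13 varied widely among the other glands too, reading 7.74, 7.02 and 6.15 in PANIC-ATTAC glands, against 5.94, 7.90 and 7.72 in WT glands.

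Lymphoid genes made up the largest role group. The 14 probes of T and NK lymphocyte genes, among them Skap1, Trat1, Prkcq and Lef1, all lay below the other glands on WT control-1, with a median of -0.83. Prkcq, a kinase of T cell receptor signalling, read 6.51, 6.87 and 6.95 in PANIC-ATTAC glands, against 5.81, 6.60 and 7.14 in WT glands, 5.81 being WT control-1. The 4 B lymphocyte probes had a median of -0.88. Fcer2a, the low-affinity IgE receptor CD23 of B cells, read 5.34 on WT control-1 and 6.50 ± 0.19 on the others. Lists of markers of the same cells ran in that direction: all 13 tested probes of the B cell and lymph node list, of which 1 (Fcer2a) is in the set, lay below the other glands on WT control-1, with a median of -1.03, and so did all 6 of the T cell list, with a median of -1.08. The part of lymph node tissue in these values was not tested.

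Stromal and vessel genes followed. The 7 probes for stromal signals and receptors, among them Fgf10, Zeb1, a transcription factor of mesenchymal cells, and Lpar1, a receptor of lysophosphatidic acid, had a median of -0.94 on WT control-1. Fgf10 read 5.68 there and 6.99 ± 0.19 on the others. Stab2, a scavenger receptor of sinusoidal and lymphatic endothelium, and the endothelial receptor Gpr182 with 2 probes had a median of -0.81. All 14 tested fibroblast marker probes, none of which is in the set, were lowest on WT control-1, with a median of -1.04. The 5 probes of granulocyte and macrophage genes had a median of -0.59. Among them Rnase2a belongs to a multigene family of ribonucleases, so its level is uncertain.

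Hox genes, homeobox transcription factors that set position along the body axis, had 5 probes in the set. Hoxa9 read 6.72, 6.93 and 6.38 in PANIC-ATTAC glands, against 5.71, 6.64 and 6.68 in WT glands (ILMN_2645155), and its second probe ILMN_1258462 showed a smaller difference on WT control-1, at -0.27 against -0.96. Hoxd9 and Hoxd10 differed there by -0.69 and -0.44, and Hoxa3, the dimmest of the group at 5.57 ± 0.16, by -0.29.

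Genes of lipid and energy metabolism were shifted less than the other role groups, with a median of -0.47 over 9 probes and 5 of them lowest on WT control-1. Pck1, the enzyme that commits carbon to gluconeogenesis and, in fat, to glycerol synthesis, read 5.85, 6.60 and 5.56 in PANIC-ATTAC glands, against 5.81, 6.50 and 6.84 in WT glands, and the groups overlapped. Crat, which transfers acetyl groups to carnitine, read 6.11 on WT control-1 and 6.51 ± 0.49 on the others. Among adipocyte markers 12 of 14 tested probes lay below the other glands on WT control-1, with a median of -0.79. The 2 exceptions were genes of brown and beige fat: Ucp1, the mitochondrial uncoupler, was 3.38 higher and Cidea, a lipid droplet protein, 1.48 higher. Cidea read 10.59, 11.96 and 7.05 in PANIC-ATTAC glands, against 11.98, 11.51 and 11.39 in WT glands. WT control-1, at 11.98, was thus level with PANIC-ATTAC gland 2 on Cidea, and the low PANIC-ATTAC gland 3 lowered the mean of the other glands. Ucp1 read 6.43, 11.10 and 4.88 in PANIC-ATTAC glands, against 11.92, 10.56 and 9.72 in WT glands, a difference of -3.26 that did not pass the test (limma with Benjamini-Hochberg adjustment, adjusted p = 0.417). Ucp1 and Cidea are not in the set.

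The next comparison asked whether the 133 probes differed between hyperglycemic and control glands. None passed the correction: limma called 0 of the 133 at a Benjamini-Hochberg adjusted p under 0.05, with a smallest adjusted p of 0.212, and 0 of all 18427 tested probes (0%), with a smallest adjusted p of 0.0653. Without correction, 25 of the 133 (18.8%) had a p under 0.05, against 10.4% of all tested probes. Of these, 24 were higher in PANIC-ATTAC glands (18.0%, against 4.85%) and 1 was lower (0.752%, against 5.52%). The median standard error of a member's difference was 0.22 log2 units, so differences of small size were not detectable with 3 arrays a group.

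The differences leaned to 1 side when all 6 glands were used. The median was 0.18 higher in PANIC-ATTAC glands, and 100 of the 133 (75.2%) had a difference above 0, against 48.1% of all tested probes, whose median was -0.01. All 3 PANIC-ATTAC glands lay above all 3 WT glands for 16 probes (12%), against 5.75% of all tested probes, and below them for 1 (0.752%), against 6.22%. Only Elovl4 differed by 2-fold or more (0.752% of the set), against 1.41% of all tested probes.

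That lean rested on WT control-1. Without it the median difference was -0.05, and 58 of the 133 (43.6%) were above 0, against 48.7% of all tested probes. Of the 100 probes above 0 with all glands, 42 were below 0 without WT control-1. No probe passed the correction without it either, the smallest adjusted p by limma among the 133 being 0.158. Uncorrected p-values under 0.05 were then found for 23 probes (17.3%, against 10.1% of all tested probes), of which 11 were higher in PANIC-ATTAC glands (8.27%, against 5.27%) and 12 lower (9.02%, against 4.82%). A difference of 2-fold or more remained for 1 probe (0.752%, against 1.07%). All 16 probes whose PANIC-ATTAC glands lay above the WT glands had WT control-1 as their lowest gland. Without WT control-1, 17 probes (12.8%, against 12.5% of all tested probes) had their PANIC-ATTAC glands above both of these WT glands and 13 (9.77%, against 12.4%) below both.

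Elovl4, an elongase of very-long-chain fatty acids that is active in skin and retina, had the largest difference. It read 6.63, 6.07 and 8.48 log2 units in PANIC-ATTAC glands, against 5.43, 5.49 and 5.62 in WT glands. The groups did not overlap, but the PANIC-ATTAC glands spread over more than the gap, with 1 gland far above the others. Elovl4 averaged 7.06 ± 1.26 in PANIC-ATTAC glands and 5.51 ± 0.09 in WT glands (SD, n = 3 each). The difference was 1.55 (SE 0.46, limma adjusted p 0.335). It was 1.51 without WT control-1 (limma adjusted p 0.378), but 0.84 without PANIC-ATTAC gland 3 and 2.04 without PANIC-ATTAC gland 2, so that a 2-fold difference rested on gland 3. Over all alternatives its adjusted p lay between 0.0914 and 0.842. The 2 tested skin markers ran in the same direction: Krt10, a keratin of differentiated epidermis, read 11.38, 8.38 and 11.74 in PANIC-ATTAC glands, against 8.55, 8.33 and 8.42 in WT glands, and Krt15, a keratin of basal epidermis and hair follicles, read 7.82, 7.94 and 8.64 in PANIC-ATTAC glands, against 6.57, 5.87 and 5.82 in WT glands. The list held 8 genes with probes, of which these 2 were tested, and its part in the Elovl4 values was not tested. Skeletal muscle markers, none in the set, were also high on PANIC-ATTAC gland 3: the medians of the 19 tested probes were 7.04, 7.08 and 10.49 in PANIC-ATTAC glands, against 6.07, 8.0 and 4.81 in WT glands. Of these, 17 were above 0, with a median difference of 2.07 (1.87 without WT control-1) and none called, and their part in the Elovl4 values was not tested either.

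Meis2, a homeodomain protein that acts with Hox proteins, had the smallest adjusted p of the set. It read 6.87, 6.84 and 7.00 in PANIC-ATTAC glands, against 5.45, 6.11 and 6.40 in WT glands, with tight PANIC-ATTAC values and a wide WT group that did not reach them. The means were 6.90 ± 0.08 in PANIC-ATTAC glands and 5.99 ± 0.48 in WT glands (SD, n = 3 each), and their difference was 0.91 (SE 0.21, limma adjusted p 0.212). Without WT control-1 it was 0.65 (SE 0.15, limma adjusted p 0.198), and over all alternatives the adjusted p lay between 0.0766 and 0.842. A brighter probe of Meis2 (ILMN_2850391) averaged 8.79 ± 0.08 in PANIC-ATTAC glands and 8.17 ± 0.56 in WT glands, a difference of 0.62 (SE 0.26, limma adjusted p 0.441) that was 0.30 without WT control-1, and its groups did not overlap. The other 2 Meis2 probes were detected on no array.

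Slc43a1 read 7.41, 7.17 and 7.38 in PANIC-ATTAC glands, against 5.60, 6.64 and 7.04 in WT glands. The closest values were 7.17 and 7.04, so the groups only just failed to overlap. The difference of 0.89 (SE 0.34, limma adjusted p 0.417) was 0.48 without WT control-1. Its further probe ILMN_1229667 gave 9.18 ± 0.16 in PANIC-ATTAC glands and 8.26 ± 0.79 in WT glands, a difference of 0.92 (SE 0.38, limma adjusted p 0.444) that was 0.47 without WT control-1.

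Acsm5, a mitochondrial acyl-CoA synthetase for medium-chain fatty acids, read 6.79, 6.98 and 6.66 in PANIC-ATTAC glands, against 5.64, 5.94 and 6.56 in WT glands. Here too the highest WT gland came close to the lowest PANIC-ATTAC gland. Its difference was 0.76 (SE 0.21, limma adjusted p 0.304), and 0.56 without WT control-1. Slc22a4, a carrier of organic cations and ergothioneine, read 6.86, 6.87 and 6.95 in PANIC-ATTAC glands, against 5.87, 6.24 and 6.64 in WT glands, a difference of 0.65 (SE 0.17, limma adjusted p 0.289) and 0.45 without WT control-1. Pcdh19 differed by 0.71 (SE 0.32, limma adjusted p 0.475), and by 0.24 without WT control-1, since WT control-2 and WT control-3 read 6.98 and 6.65, while the PANIC-ATTAC glands read 7.07, 6.99 and 7.10.

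The other 10 probes with all 3 PANIC-ATTAC glands above all 3 WT glands had differences between 0.41 and 0.62. WT control-1 was the lowest gland for each of them, so leaving it out had to make each difference smaller. Without it they lay between 0.21 and 0.43. Zeb1 differed by 0.62 with all glands and 0.33 without WT control-1, the metalloprotease Adam12 by 0.59 and 0.39, and Fcer2a by 0.56 and 0.21. The Src-family kinase Fyn differed by 0.53 and 0.23, the zinc finger protein Bnc2 by 0.53 and 0.24, and Lpar1 by 0.52 and 0.26. The remaining 4 were Stab2 (0.51 and 0.43), 1700048O20Rik (0.44 and 0.32), the Rac exchange factor Prex2 (0.43 and 0.37) and B130024G19Rik (0.41 and 0.24). Stab2 had the smallest adjusted p among these by limma, at 0.289. Tested further probes differed by 0.19 and 0.06 for Prex2 (ILMN_3065921, groups overlapping), 0.46 and 0.18 for Zeb1, and 0.42 and 0.20 for Lpar1. For Fcer2a they differed by 0.68 and 0.28 (ILMN_2975312) and by 0.48 and 0.07 (ILMN_2652875). Fcer2a, the B cell member on a list of cell type markers, read 6.45, 6.48 and 6.82 in PANIC-ATTAC glands, against 5.34, 6.39 and 6.36 in WT glands. The 13 B cell and lymph node probes had a median difference of 0.34, all 13 above 0, and of 0.04 without WT control-1, 9 above 0, and none was called.

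Aqp7, the channel through which fat cells release glycerol, was the only probe with all PANIC-ATTAC glands below all WT glands. It read 5.54, 5.30 and 5.79 in PANIC-ATTAC glands, against 5.83, 6.10 and 5.80 in WT glands, so that 5.79 and 5.80 all but touched. The difference was -0.37 (SE 0.14, limma adjusted p 0.425) and -0.41 without WT control-1. The 3 further probes of Aqp7, which were brighter at gland means of 8.06 to 9.30, differed by 0.03, 0.09 and 0.11 with all glands and by -0.30, -0.23 and -0.18 without WT control-1, so their direction turned with that gland.

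By role group, no group held a probe that passed the test. The group medians with all glands were 0.49 for solute carriers, 0.42 for sinusoidal and lymphatic endothelium, 0.38 for B lymphocyte genes and for stromal signals, 0.35 for Hox genes with Meis2, 0.27 for granulocytes and macrophages, 0.16 for T and NK lymphocytes and -0.03 for lipid and energy metabolism. Without WT control-1 they lay between -0.1 for lipid and energy metabolism and 0.15 for B lymphocyte genes and for Hox genes with Meis2. Each role group's median was thus nearer to 0 without that gland, except for lipid and energy metabolism. Pck1, on the lists of adipocyte markers and of glucose and insulin signalling, differed by -0.38 (SE 0.28, limma adjusted p 0.619) and by -0.67 without WT control-1. Of the 16 tested probes for glucose and insulin signalling, 6 were above 0 and 10 below with all glands, and 1 was above 0 without WT control-1. None of the 16 was called. Of the 18 tested probes for lipid uptake, storage and lipolysis, none in the set, 6 were above 0 with all glands. Without WT control-1, 0 were above 0, with a median of -0.45 then and none called. The median levels of this list were 11.4, 11.63 and 10.09 in PANIC-ATTAC glands, against 11.13, 11.77 and 11.82 in WT glands. PANIC-ATTAC gland 3 was thus the lowest, and its part in these counts was not tested.

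The further probes of the same genes gave a like picture. Of 61 that were tested, 47 had a difference above 0 with all glands and 26 without WT control-1, with medians of 0.18 and -0.03, and none was called. On WT control-1, 57 of the 61 lay below the other glands and 47 were lowest there, with a median of -0.79. These probes were read on the same arrays as the 133, so they show the same glands through other oligonucleotides and are no further animals.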

How the data were processed

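Total RNA was hybridised as biotin-labelled cRNA to Illumina BeadChips and read out with GenomeStudio 2011.1, per the submitters' processing notes. Per the file headers, the deposited values are bead-averaged intensity per probe on a linear scale, a detection p-value, a bead count and the bead standard error of the signal. A second deposited table holds the authors' processed intensity values, made in a way not given in the sources used here; on its log2 scale it served as an alternative.

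Background correction, offset of 16, log2 and quantile normalization over all 12 arrays used neqc of limma 3.58.1 in R 4.3.3, which estimates the background through the detection p-values. The offset compresses differences of dim probes. The 18427 probes tested had detection p-values below 0.01 throughout at least 1 group of 3 arrays. A model of 4 groups was fitted with lmFit and eBayes (8 residual and 3.09 prior degrees of freedom) and p-values were adjusted by Benjamini-Hochberg over all tested probes. The fit was first tested on simulated data. Gene names come from GEO's platform annotation, which gave 34885 probes a single gene, 18 several and 10378 none; symbols were looked up in RefSeq and 0 changed. Of the 110 genes, 89 had a RefSeq promoter.

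The 133 probes, the gene and marker lists and the role groups were chosen with earlier results of these data known. Named genes were those past the threshold (there were none), the 10 brightest, up to 6 of the largest differences per direction among probes whose groups did not overlap, the 6 most and 4 least reduced on WT control-1, those on a fixed list, and families with 3 or more probes (solute carriers and Hox genes). Mean beads per probe were 37.1 to 44.7 per array, and the number of arrays limits the precision. The deposited files hold no probe sequences that were used here.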

Additional observations from a re-analysis of the deposited data

Results flagged for a closer look

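A value was looked at again where the lowest or highest of the 6 glands lay further from its neighbour than Dixon's critical value for 6 samples allows, as a share of the whole range; 32 values were examined. Chance alone picks out about 1 in 20 groups, but that rate does not apply here, since some genes, Slc13a4 and Pcdh19 among them, were named for being low on WT control-1. In all 7 cases found the gland was WT control-1, on the low side. The median level of the 133 probes was 5.57 there, with a ratio of 0.812, and the mean number of beads per probe 36.8, with a ratio of 0.823. Among named genes the values were 5.34 for Fcer2a (0.691), 5.51 for Slc28a2b (0.799), 5.39 for Pcdh19 (0.739), 5.64 for Slc13a4 (0.742) and 6.04 for Slc28a2 (0.748). Slc28a2 and Slc28a2b are near-identical copies and may not be separate cases. Over all 133 probes, 16 had WT control-1 past the critical value on the low side and 5 had another gland past it, 4 on the high side and 1 on the low side. The share over all tested probes is not given here, so these counts do not show whether the set differs from other probes. WT control-1 was the lowest gland for 75.9% of the set and for 30.3% of all tested probes. The part of the lower bead number in these levels was not tested.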

How the results depend on the processing

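None of the 133 probes passed the threshold under any of the 24 alternatives to the limma fit, with smallest adjusted p-values between 0.0619 and 0.842. Over all tested probes the count was 3 with median scaling, 1 with cyclic loess, 147 with array quality weights (100 higher, with a weight of 0.143 for WT control-1), 7 with the replicate number as a block (5 higher), and 0 to 6 with arrays left out in turn, 6 being without PANIC-ATTAC gland 2. Same-numbered glands correlated at 0.102, -0.00803 and -0.0827 in their deviations from the group means. With 3 glands a group this cannot decide whether equal numbers share more than a label. Each number occurs once in every group, so the block cannot move a difference between groups. The median difference of the set was therefore 0.18 under the block by construction. That median was -0.04 with array weights (57 probes above 0) and between -0.05 (58 above 0, without WT control-1) and 0.31 with arrays left out in turn. The median gland level was 6.73 without background correction and on the authors' table and 6.76 with an offset of 50, and it was 6.14 to 6.32 with glands left out in turn. The shift on WT control-1 was -0.45, -0.45 and -0.44 under those settings, since they leave or add background, -0.8 over the probes chosen on the 5 other glands (a choice that favours a lower value on WT control-1), and -0.71 to -0.67 with other glands left out. The set held 20 probes with a tumor threshold of 0.05 and 133 to 366 with arrays left out in turn, being 219 without PyMT tumor 3 and 366 without WT control-1. Normalization within the glands alone was run within each tissue, so that all 4 groups stayed in the fit. Results without WT control-1 by direction, and those over the 366 probes, were added after the data had been seen. Signals close to background, small groups and 1 gland unlike the others limit what these probes can show: bounds for tumors depend on the detection threshold, and a difference of 0.22 log2 units equals 1 standard error.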
